A study of Mus musculus with 6 samples.

Results

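Pdx1, Nkx6-1, Mnx1 and Glis3 encode transcription factors of the insulin-producing beta cell. Their 4 rows were taken by gene symbol from a table of 46959 genes measured by RNA sequencing in 6 libraries of sorted mouse islet cells, and all 4 were among the 13367 genes expressed highly enough to be tested (at least 1 RPKM, the read count divided by gene length and by library size, in at least 2 libraries). The study compared 3 populations with 2 libraries each, sorted from islets of adult mice that carried both an Ins1-H2b-mCherry and a Ucn3-eGFP reporter. The immature beta cells had mCherry without eGFP, the mature beta cells had both, and the double negative cells, the remaining islet cells, had neither. Every population therefore carried both reporter alleles, and no mice without reporters were sequenced. Islets were kept in culture overnight before they were dissociated and sorted. The design text gives pools of 10 to 12 females for each library, whereas replicate 1 of every population carries a male sex label and replicate 2 a female one. A population is thus defined by reporter fluorescence, and in these bulk libraries fewer cells of a type and less RNA per cell cannot be told apart.

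Pdx1 is required for the pancreas to form and later for insulin transcription in beta cells, where it binds the insulin promoter. Nkx6-1 acts mainly as a repressor: it directs endocrine precursors to the beta cell fate and keeps alpha cell genes silent. Mnx1, also known as Hb9, is needed early in the dorsal pancreatic bud and later keeps beta cells from taking on features of delta cells. Glis3 is a zinc finger protein that binds the insulin promoter, and its loss causes neonatal diabetes in mice and humans. Pdx1, Nkx6-1 and Mnx1 bind DNA through a homeodomain, whose recognition helix lies in the major groove, and Glis3 has no homeodomain.

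The DNA that encodes that helix is shown for Pdx1 and Mnx1, because it is an alike stretch of genes that were counted separately. The capitals mark bases that are identical in both genes, and the sequences are from GENCODE M21 transcripts, 5′ to 3′ in the sense of the gene.
Pdx1: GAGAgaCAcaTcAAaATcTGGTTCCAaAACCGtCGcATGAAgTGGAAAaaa
Mnx1: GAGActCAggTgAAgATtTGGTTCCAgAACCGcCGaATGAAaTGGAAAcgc
Of these 51 bases, 37 (72.5%) were shared. Over the whole homeobox of 180 bases, Pdx1 and Mnx1 were identical at 113 bases (62.8%). The longest run that their transcripts shared exactly was 11 bases. The Pdx1 stretch lies in the last of its 2 exons on chromosome 5, 147274532 to 147274582 on the plus strand of GRCm38. The Mnx1 stretch is split by the intron between exons 2 and 3, at 29474190 to 29474764 on the minus strand of the same chromosome.

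The immature libraries were far shallower than the others and had higher levels of acinar, immune and endothelial markers. Steps in the RPKM values correspond to 2393841 and 3448926 reads in the immature libraries and to between 22063880 and 26824380 reads in the other 4. All 6 beta cell markers (Ins1, Ins2, Iapp, Ucn3, Slc2a2 and Mafa) were above 0 in every population, and their summed level lay between 72487 and 77513 RPKM in immature libraries, 244589 and 261367 RPKM in mature ones and 4672 and 6955 RPKM in double negative ones. The 10 acinar markers summed to between 7799 and 24757 RPKM in immature libraries, 104.4 and 149 RPKM in mature ones and 212.5 and 1832 RPKM in double negative ones. The 9 immune markers summed to between 1855 and 1919 RPKM in immature libraries, 61.65 and 62.31 RPKM in mature ones and 50.73 and 53.94 RPKM in double negative ones. The 6 alpha cell markers summed to between 19860 and 29170 RPKM in immature libraries, 674.1 and 878.4 RPKM in mature ones and 171677 and 178111 RPKM in double negative ones. For the 7 endothelial markers the sums reached from 733.2 to 781.9 RPKM (immature), from 2.226 to 3.629 RPKM (mature) and from 178.4 to 188.1 RPKM (double negative). The 8 ductal markers summed to between 457.5 and 476.5 RPKM in immature libraries. The sums were 821.3 to 895.1 RPKM in mature and 741 to 765.9 RPKM in double negative ones. Most of each sum was Spp1, with means of 286.9 RPKM (immature), 784.8 RPKM (mature) and 622.1 RPKM (double negative). Of the 7 ductal markers tested, 5 were higher and 2, Spp1 among them, lower in immature than in mature cells (median log2 difference 2.25). The shares of all tested genes were 49.8% and 15.5% (test described below). No marker of these 6 lists was at 0 in both libraries of a population, and the part of these other cells in the results was not tested.

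Pdx1 (ENSMUSG00000029644.7, chromosome 5, 147269959 to 147275848, plus strand, GRCm38) was highest in mature beta cells, intermediate in immature beta cells and lowest in double negative cells. The immature libraries gave 34.26 and 42.59 RPKM, the mature libraries 63.71 and 67.74 RPKM, and the double negative libraries 11.32 and 12.90 RPKM. The 3 populations did not overlap, and the lower mature library was well above the higher immature library. These values rest on 177 and 317 reads for the immature libraries, 3261 and 3921 for the mature ones and 539 and 633 for the double negative ones.

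Nkx6-1 (ENSMUSG00000035187.10, chromosome 5, 101658139 to 101664996, minus strand) followed the same order with the highest level of the 4 genes in both beta cell populations. The immature libraries gave 39.00 and 51.47 RPKM, the mature libraries 72.50 and 71.30 RPKM, and the double negative libraries 6.96 and 7.50 RPKM. The immature libraries differed most between themselves, and again no population overlapped with another. In the double negative libraries Nkx6-1 was below Pdx1, whereas in both beta cell populations it was above Pdx1.

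Mnx1 (ENSMUSG00000001566.9, chromosome 5, 29473034 to 29478470, minus strand) was present at a low level in beta cells and near 0 in double negative cells. The immature libraries gave 5.01 and 4.64 RPKM, the mature libraries 7.36 and 7.70 RPKM, and the double negative libraries 0.1209 and 0.2737 RPKM. Only 27 and 36 reads lie behind the immature values, and 6 and 14 behind the double negative values, against 393 and 465 in the mature libraries. Exact Poisson 95% intervals, which cover counting error only, reached from 3.304 to 7.293 RPKM and from 3.249 to 6.423 RPKM in the immature libraries, so that of immature replicate 1 overlapped those of both mature libraries.

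Glis3 (ENSMUSG00000052942.13, chromosome 19, 28258851 to 28680077, minus strand) differed least between the populations. The immature libraries gave 8.08 and 8.79 RPKM, the mature libraries 9.26 and 9.06 RPKM, and the double negative libraries 4.90 and 5.45 RPKM. The immature values lay just under the mature values, which fell within the wider counting intervals of the immature libraries (6.913 to 9.385 RPKM and 7.767 to 9.906 RPKM), and the double negative values were below both. In exonic length Glis3 is the largest of the 4, with 8842 bases over a gene of 421227 bases, so its modest RPKM rests on 171 and 268 reads in the immature libraries.

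**Figure D1:**
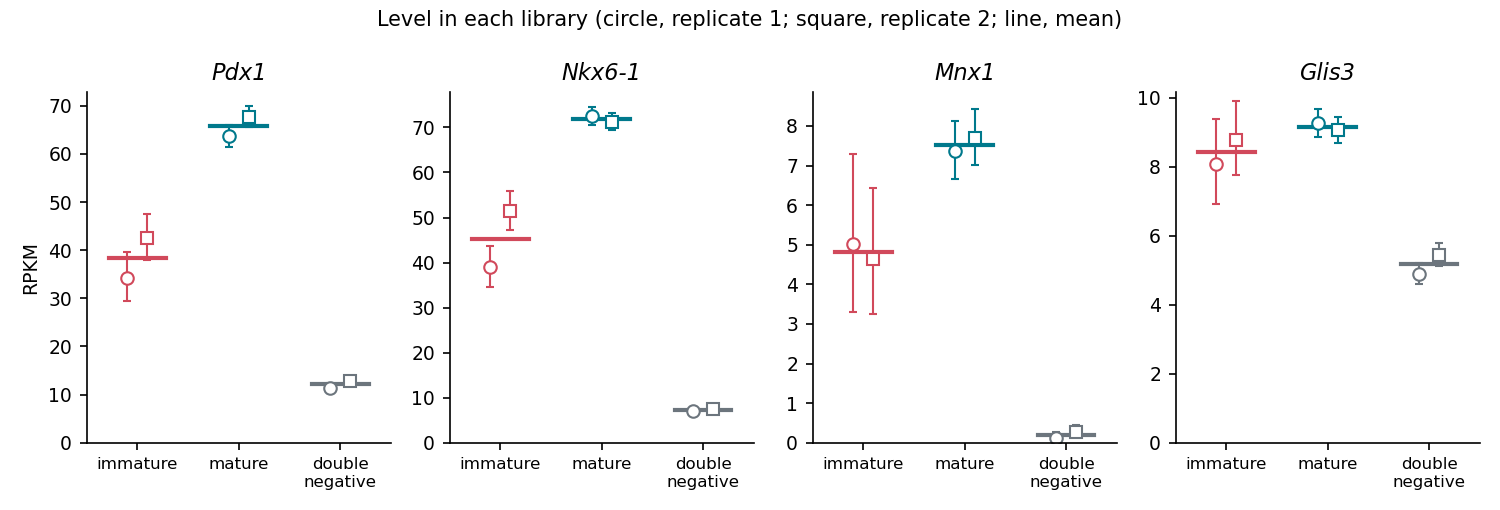
RPKM of each gene (vertical axes, each starting at 0 with its own scale) in the immature, mature and double negative populations; circles and squares are replicates 1 and 2, lines are means, and error bars are exact Poisson 95% intervals for counting error. Pdx1, Nkx6-1 and Mnx1 step down from mature to immature to double negative cells, and Glis3 stands at 8.08 to 9.26 RPKM in all 4 beta cell libraries.

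The first comparison asked how the 4 factors differ between immature and mature beta cells. Pdx1, Nkx6-1 and Mnx1 fell in immature cells, and Glis3 did not pass the test. Of all tested genes, 65.3% differed, 15.5% lower and 49.8% higher in immature cells, by limma, a linear model on log2(RPKM + 1), at a Benjamini-Hochberg adjusted p under 0.05. Pdx1 averaged 38.4 ± 5.89 RPKM in immature cells, against 65.7 ± 2.85 RPKM in mature cells (n = 2 libraries each, SD), a log2 difference of -0.77 (SE 0.12, limma adjusted p = 0.00191). Nkx6-1 averaged 45.2 ± 8.81 RPKM in immature cells, against 71.9 ± 0.846 RPKM in mature cells, a log2 difference of -0.67 (SE 0.13, limma adjusted p = 0.00477). For Mnx1 the means were 4.83 ± 0.264 RPKM for immature cells, against 7.53 ± 0.241 RPKM for mature cells, with a log2 difference of -0.55 (SE 0.10, limma adjusted p = 0.00408). Glis3 averaged 8.43 ± 0.502 RPKM in immature cells, against 9.17 ± 0.142 RPKM in mature cells, and its log2 difference was -0.11 (SE 0.08, limma adjusted p = 0.273). Both immature libraries were below both mature libraries for all 4 genes, as were those of 22.5% of tested genes.

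As shares of the mature mean, the immature libraries held 52.1% and 64.8% of Pdx1, 54.2% and 71.6% of Nkx6-1, 66.5% and 61.6% of Mnx1 and 88.2% and 95.9% of Glis3. The insulin gene Ins1, whose reporter marked both populations, stood at 25% and 27.9% of its mature mean in the same libraries, and Mafa, an activator of the insulin genes, at 10.7% and 30.9%. Pooled over the 2 libraries of a population, the read rate of Glis3 in immature cells was 0.928 times that in mature cells, with an exact 95% interval for counting error of 0.839 to 1.02. The corresponding ratio was 0.635 for Mnx1, with an interval of 0.484 to 0.821.

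How far the 3 genes fell depended on the scaling of the libraries. Over all tested genes the median log2 difference was 0.29 as deposited, -0.07 after median-ratio rescaling, -0.17 after quantile normalization and 0.61 after rescaling to 12 general endocrine genes. In the same order of scalings, Pdx1 differed by -0.77, -1.20, -0.78 and -0.37 between immature and mature cells, and passed under each. Nkx6-1 differed by -0.67, -1.11, -0.67 and -0.27, and Mnx1 by -0.55, -0.93, -1.06 and -0.20, and with the endocrine rescaling neither passed (limma adjusted p = 0.103 and 0.136). Glis3 passed as lower after median-ratio rescaling (-0.51) and after quantile normalization (-0.50), and as higher after endocrine rescaling (0.26, limma adjusted p = 0.0423), so that its direction is not settled. Relative to the median of all tested genes under the same scaling, Pdx1 lay between -1.13 and -0.61, Nkx6-1 between -1.04 and -0.50, Mnx1 between -0.89 and -0.81 and Glis3 between -0.44 and -0.33.

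Mature beta cells were then set against double negative cells. All 4 genes were higher in mature cells, as were 23.1% of the tested genes by limma, while 31.2% were lower and 54.3% differed in either direction. Their libraries did not overlap with the double negative ones, which held in that direction for 35.5% of tested genes. Nkx6-1 was 9.94-fold higher, with means of 71.9 ± 0.846 RPKM for mature and 7.23 ± 0.381 RPKM for double negative cells (SD, n = 2 libraries each), with a log2 difference of 3.15 (SE 0.13, limma adjusted p = 1.63e-05). Pdx1 was 5.43-fold higher, with means of 65.7 ± 2.85 RPKM for mature and 12.1 ± 1.12 RPKM for double negative cells, and differed by 2.35 (SE 0.12, limma adjusted p = 3.22e-05). Mnx1 had the widest ratio of the 4, 38.2-fold, with means of 7.53 ± 0.241 RPKM for mature and 0.197 ± 0.108 RPKM for double negative cells. The added 1 RPKM compresses the Mnx1 difference to 2.84 (SE 0.10, limma adjusted p = 1.15e-05), whereas on recovered reads limma's voom gave 5.29 (SE 0.34). The pooled Mnx1 read rate, from 858 reads in mature and 20 in double negative cells, in mature cells was 38.0 times that in double negative cells, with an exact 95% interval for counting error of 24.5 to 62.6. Glis3 was 1.77-fold higher in mature cells, with means of 9.17 ± 0.142 RPKM for mature and 5.17 ± 0.391 RPKM for double negative cells, and differed by 0.72 (SE 0.08, limma adjusted p = 6.83e-04).

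The double negative libraries held 17.2% and 19.6% of the mature mean of Pdx1, 9.68% and 10.4% of Nkx6-1, 1.6% and 3.63% of Mnx1 and 53.4% and 59.4% of Glis3. Beside these, Ins1 stood at 0.699% and 1.53% of its mature mean, and Mafa at 0.822% and 1.6%. In each double negative replicate the Mnx1 share was thus above those of Ins1 and Mafa and below those of the other 3 genes. The Mnx1 shares rest on 6 and 14 reads in double negative replicates 1 and 2. Per 1000 RPKM of Ins1, Mnx1 measured 0.418 and 0.3465 RPKM in immature replicates 1 and 2, 0.158 and 0.1558 RPKM in their mature counterparts and 0.36 and 0.3723 RPKM in double negative ones. Pdx1 per 1000 RPKM of Ins1 measured 2.857 and 3.181 RPKM in immature replicates 1 and 2, 1.367 and 1.37 RPKM in their mature counterparts and 33.72 and 17.55 RPKM in double negative ones. Delta cells, which are known to express Pdx1, are among the double negative cells, where the delta cell hormone gene Sst stood at 19746 and 21309 RPKM. Which double negative cells carried the Pdx1 and Glis3 reads was not tested.

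In immature against double negative cells all 4 genes were again higher, as were 45.9% of the tested genes by limma, while 10.6% were lower and 56.6% differed in either direction. Again no libraries overlapped, as for 59.1% of tested genes in that direction. The log2 difference was 2.48 (SE 0.13) for Nkx6-1, 2.28 (SE 0.10) for Mnx1, 1.58 (SE 0.12) for Pdx1 and 0.61 (SE 0.08) for Glis3, with limma adjusted p = 5.51e-05, 3.29e-05, 1.77e-04 and 0.00149. In RPKM, the immature mean was 24.5-fold the double negative mean for Mnx1, 6.26-fold for Nkx6-1, 3.17-fold for Pdx1 and 1.63-fold for Glis3. After voom the Mnx1 difference was 4.65 (SE 0.40). After quantile normalization the Glis3 difference was 0.29 and after median-ratio rescaling 0.33, and it passed in both. This comparison shares its libraries with the other comparisons, so the 3 sets of values are not independent of each other.

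The immature mean lay between the other means for each gene. On the way from the double negative mean to the mature mean, it stood at 49.1% for Pdx1 (41.3% and 56.9% for the 2 libraries), 58.8% for Nkx6-1 (49.1% and 68.4%), 63.1% for Mnx1 (65.6% and 60.5%) and 81.7% for Glis3 (72.8% and 90.6%). Ins1 stood at 25.6% and Mafa at 19.9% on the same scale. All 4 factors were therefore nearer to their mature level than insulin was in these libraries. The order of mature above immature above double negative, without overlap, was found in 10.6% of tested genes. Both differences passed limma for 5.84% of tested genes, which include Pdx1, Nkx6-1 and Mnx1.

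**Figure D2:**
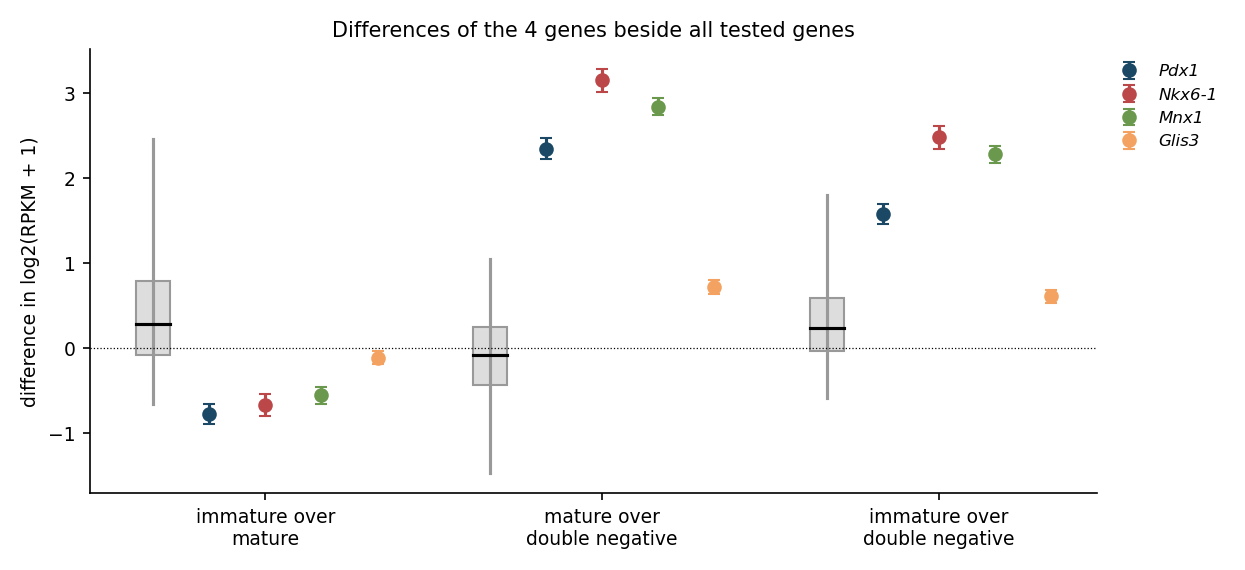
Log2 differences of the 4 genes (points, with SE) in the 3 comparisons on the log2(RPKM + 1) scale, each beside all 13367 tested genes (box from the 25th to the 75th percentile with the median, line from the 5th to the 95th). Pdx1, Nkx6-1 and Mnx1 lie above the 95th percentile in mature over double negative cells, and Glis3 is the member closest to 0 throughout.

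A ratio of the RPKM of 2 genes in the same library does not depend on the scaling factor of that library, so the 6 pairs were compared as well. The proportions of Pdx1, Nkx6-1 and Mnx1 did not pass a test between immature and mature cells. Nkx6-1 was 1.138 and 1.208 times Pdx1 for the immature libraries, 1.138 and 1.053 times for the mature ones and 0.615 and 0.5812 times for the double negative ones. The immature and mature ratios met at 1.138, and their log2 difference was 0.10 (SE 0.20, limma adjusted p = 0.648). Mnx1 was 0.1463 and 0.1089 times Pdx1 for immature libraries, against 0.1156 and 0.1137 times for mature ones, a log2 difference of 0.22 (SE 0.22, limma adjusted p = 0.351). The Mnx1 ratios depended on the immature library: with replicate 1 alone, which held 27 Mnx1 reads, the difference from mature cells was 0.41 relative to Pdx1 and 0.36 relative to Nkx6-1 (limma adjusted p = 0.0222 and 0.00953), and with replicate 2 alone it was 0.02 and -0.12 (limma adjusted p = 0.933 and 0.247). A lone library is assumed there to vary like the other populations. With SEs of that size, the tests do not show that the proportions were equal.

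Glis3 stood apart from the homeobox genes. It was 0.2358 and 0.2063 times Pdx1 for the immature libraries, 0.1454 and 0.1338 times for the mature ones and 0.4324 and 0.4222 times for the double negative ones. The Glis3 to Pdx1 ratio was higher in immature than in mature cells by 0.66 on the log2 scale (SE 0.21, limma adjusted p = 0.00277), where 88.5% of all genes differed in their ratio to Pdx1. Relative to Nkx6-1, Glis3 was higher in immature cells by 0.56 (SE 0.19, limma adjusted p = 0.0157; 82.0% of genes), and relative to Mnx1 by 0.44 (SE 0.13, limma adjusted p = 0.00695; 84.5% of genes). A change relative to these 3 genes is thus what most genes showed. Each call of the Glis3 ratios between immature and mature cells was lost without 1 or more single libraries, all with positive differences: adjusted p = 0.0825 for Pdx1 without mature replicate 2, 0.142 and 0.146 for Nkx6-1 without mature replicate 1 or 2, and 0.056 and 0.0742 for Mnx1 without immature or mature replicate 2.

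Between mature and double negative cells, Nkx6-1 rose more than Pdx1, by 0.80 on the log2 scale (SE 0.20, limma adjusted p = 1.14e-04), and Glis3 less than Pdx1, by a difference of -1.63 (SE 0.21, limma adjusted p = 5.51e-13). With the spread of each ratio left unmoderated, since all ratios to Pdx1 share the noise of Pdx1, these had adjusted p = 0.00212 and 0.0015. The background was 99.0% of genes with a changed ratio to Pdx1. Glis3 also rose less than Nkx6-1 (-2.43, SE 0.19, background 99.7%) and less than Mnx1 (-2.11, SE 0.13, background 99.6%). Between immature and double negative cells, the Glis3 differences were -0.97 relative to Pdx1 (background 92.0%), -1.86 relative to Nkx6-1 (background 97.1%) and -1.67 relative to Mnx1 (background 97.1%), and each passed. With 0.1 added in place of 1, the Glis3 to Mnx1 difference was -3.92 between mature and double negative cells and -3.40 between immature and double negative cells, and between immature and mature cells it was 0.51 and did not pass (limma adjusted p = 0.252). Mnx1 rose more than Pdx1 between mature and double negative cells, by 0.49 (SE 0.22, limma adjusted p = 0.0303), and the size depended on the added constant, with 1.14 for 0.5 added and 2.30 for 0.1 added (limma adjusted p = 3.96e-05 and 5.75e-07). With 1 added, the call was lost with unmoderated spread (adjusted p = 0.0596) and without either mature or either double negative library (adjusted p = 0.11 to 0.161). The Mnx1 to Nkx6-1 ratio depended on the added constant: as a ratio of RPKM it was 0.1016 and 0.1081 for mature libraries, against 0.01736 and 0.0365 for double negative ones. On log2(RPKM + 1) its difference was -0.31 (SE 0.21, limma adjusted p = 0.17), and with 0.1 added in place of 1 it was 1.43 (SE 0.29, limma adjusted p = 5.41e-04).

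**Figure D3:**
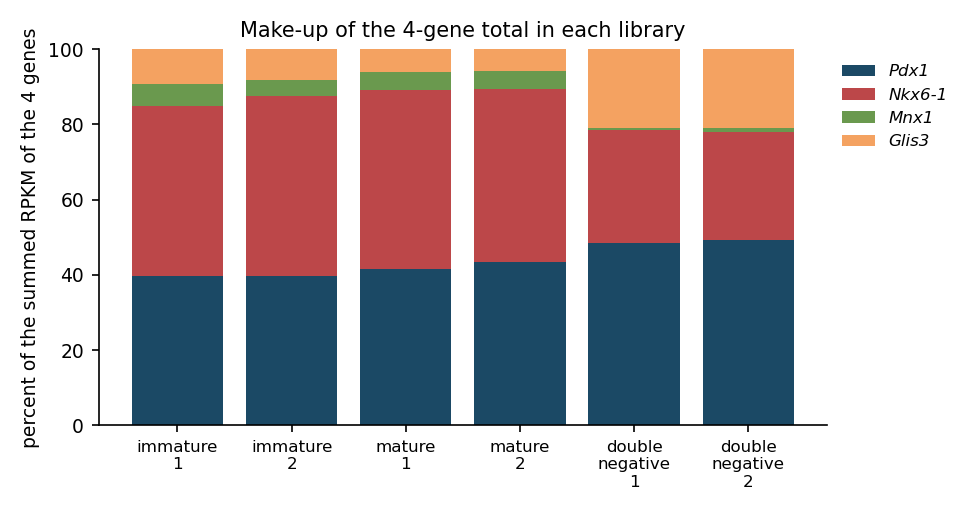
Share of each gene in the summed RPKM of the 4 genes (vertical axis, percent) in each of the 6 libraries. Nkx6-1 makes up 45.2% to 47.9% in the immature and 45.8% to 47.4% in the mature libraries but 28.7% and 29.9% in the double negative ones, where Glis3 makes up 20.9% and 21%.

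Genes that need these factors in beta cells, and genes of other islet fates that the factors are known to keep low, had larger median differences between immature and mature cells than any of the 4 factors. Of 14 listed dependent genes, 12 fell and 1 rose in immature against mature cells, beside 15.5% and 49.8% of all tested genes, with a median log2 difference of -1.54 against 0.29 over all tested genes. The 4 largest falls were of Mafa (-2.40, SE 0.46), the islet glucose-6-phosphatase gene G6pc2 (-2.26, SE 0.33), Ins1 (-1.92, SE 0.35) and Ero1lb, an oxidoreductase of proinsulin folding (-1.89, SE 0.12). The gene that rose, the zinc transporter gene Slc30a8, did so by 0.23 and turned sign after median-ratio rescaling. After quantile normalization Ins2 and Iapp, which encodes the islet amyloid peptide, differed by 0.00 each. That method gives equal values to equal ranks. Among the genes of all lists used here, those of other cell types included, Ins2 and Iapp each kept their rank in all 4 beta cell libraries. Among the 14 dependent genes alone, Iapp was above Ins1 in the immature libraries and below it in the mature ones. Quantile normalization therefore cannot show whether Ins2 and Iapp differed. After median-ratio and endocrine rescaling Ins2 differed by -2.25 and -1.40, and Iapp by -1.84 and -0.99. In mature against double negative cells 13 of the 14 rose and 1 fell, beside 23.1% and 31.2% of all tested genes, with a median of 3.98 against -0.08. The gene that fell there was also Slc30a8. The list includes Ins1 and Ucn3, whose reporters defined the sort.

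All 10 listed genes of alpha, delta and PP cells rose in immature against mature cells (median 3.35, against 0.29 over all tested genes, of which 49.8% rose). All 10 fell in mature against double negative cells (median -4.93, against -0.08 over all tested genes, of which 31.2% fell). The largest rises were of the peptide hormone genes Pyy (5.67, SE 0.12) and Ppy (5.54, SE 0.17) and of the glucagon gene Gcg (5.22, SE 0.24). In immature libraries Gcg stood at 16.5% and 11.2% of its double negative mean, Sst at 15.7% and 17.3%, and Ppy at 32.3% and 40.6%. After quantile normalization 9 of the 10 passed as higher in immature than in mature cells. All 10 also fell in immature against double negative cells (median -1.59, against 0.24 over all tested genes, of which 10.6% fell). Whether the same cells held these transcripts and lower Pdx1, Nkx6-1 or Mnx1 was not tested.

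Other islet transcription factors did not share one direction. Of 20 tested on a list of 25, 12 rose and 5 fell in immature against mature cells (median 0.57), beside 49.8% and 15.5% of all tested genes. After median-ratio rescaling 10 were higher and 8 lower. Among the largest differences were the fall of Mafa and rises of Gata6 (2.36, SE 0.09) and Sox9 (2.25, SE 0.15), which act in pancreatic progenitors and, for Sox9, in duct cells. In mature against double negative cells 5 rose and 11 fell (median -0.45), beside 23.1% and 31.2% of all tested genes.

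Of 19 tested cofactors known to work with the homeodomain proteins, 10 rose and none fell in immature against mature cells, beside 49.8% and 15.5% of all tested genes (median 0.31, against 0.29 over all tested genes). After median-ratio rescaling 5 rose and 4 fell, with Meis2 and Setd7 turning sign, so the count follows the scaling. Among the largest rises were those of the corepressor gene Tle2 (1.28, SE 0.10), of Ldb1, which bridges LIM-homeodomain proteins (0.95, SE 0.06), and of the acetyltransferase gene Ep300 (0.72, SE 0.06), and these 3 kept their sign under the 3 other scalings. In mature against double negative cells 3 rose and 10 fell, beside 23.1% and 31.2% of all tested genes (median -0.38, against -0.08).

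Most close relatives, like most genes measured, were not expressed highly enough to be tested. Of 20 listed genes of the Nkx, Glis, Gli and Zic families and of other homeobox families near Pdx1 and Mnx1, 3 were tested. Of all 46959 genes measured, 13367 were. Nkx6-2 was listed at 0 in both immature libraries and stood at 0.1105 and 0.05865 RPKM in the mature libraries, and Nkx6-3 reached at most 0.162 RPKM in any library. Glis2, a zinc finger relative of Glis3, averaged 7.08 RPKM in immature cells, against 3.58 RPKM in mature cells, and rose by 0.82 (SE 0.11), though after quantile normalization its difference of 0.27 did not pass. Nkx2-3 rose by 2.13 (SE 0.11), with means of 3.57 RPKM for immature and 0.0464 RPKM for mature cells. Nkx2-2, an endocrine factor related to Nkx6-1, fell by 0.26 (SE 0.07) and turned sign, without passing, after endocrine rescaling. Of the 3 Nkx6 genes, Nkx6-1 alone exceeded 1 RPKM in any library.

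**Figure D4:**
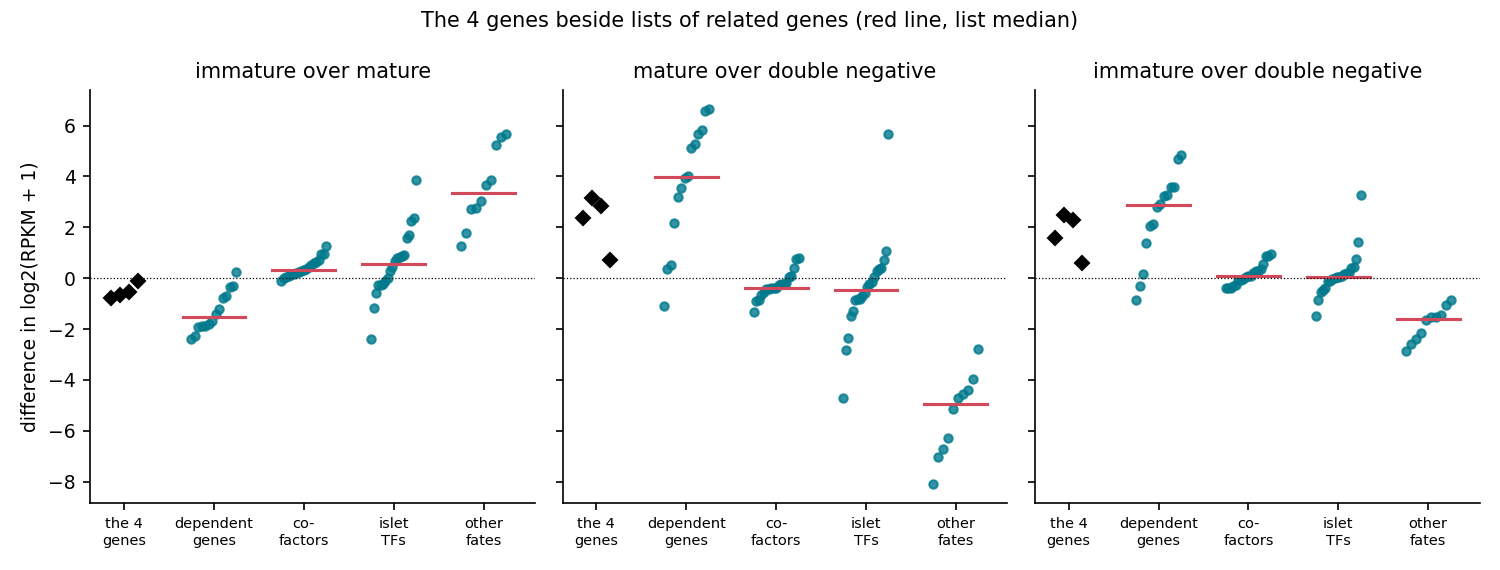
Log2 differences on the log2(RPKM + 1) scale for the 4 genes (black diamonds, in the order Pdx1, Nkx6-1, Mnx1, Glis3) and for the tested members of 4 lists (points, with the list median in red) in the 3 comparisons. In immature over mature cells the medians are -1.54 for the dependent genes, 0.31 for the cofactors, 0.57 for the other islet transcription factors and 3.35 for the genes of other fates.

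Genes around the 4 loci did not follow them as a group. The antisense transcript Plut (2210019I11Rik in the deposited table), which overlaps Pdx1 on the opposite strand and whose human counterpart is known to promote PDX1 transcription, stood at 1.01 and 3.78 RPKM in immature replicates 1 and 2, at 2.81 and 2.14 RPKM in their mature counterparts and at 0.394 and 0.553 RPKM in double negative ones. It rose in mature against double negative cells by 1.23 (SE 0.39, limma adjusted p = 0.0388), and differed by -0.16 (SE 0.39, limma adjusted p = 0.741) between immature and mature cells, whose libraries overlapped. The library kit does not mark strand, so reads in the overlap of Plut and Pdx1 cannot be told apart.

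Of the nearest protein-coding genes, Gsx1 was at 0 in all 6 libraries and Cdx2 was at 0.02005 RPKM or less, on either side of Pdx1 at distances of 79012 and 24957 bases. Nom1, 15191 bases from Mnx1, stood at 4.71 and 5.15 RPKM in immature replicates 1 and 2, at 4.85 and 4.56 RPKM in their mature counterparts and at 4.67 and 4.33 RPKM in double negative ones, and passed in no comparison. On the other side of Mnx1, the ubiquitin ligase gene Ube3c rose in immature against mature cells by 0.30 and in mature against double negative cells by 0.84. Beside Nkx6-1, Cds1 differed by 0.05 or less in size and passed in no comparison, and Agpat9 was not expressed highly enough to be tested. Beside Glis3, Rfx3, a transcription factor of ciliated and endocrine cells, rose in immature against mature cells by 0.90 and fell in mature against double negative cells by 0.69, opposite to Glis3 in the second comparison, and Slc1a1 was not expressed highly enough to be tested.

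The genes with the most similar profile over the 6 libraries were ranked by the root mean square difference of centred log2(RPKM + 1) values among 11633 named protein-coding genes. The closest to Pdx1 were Hadh (0.079), Cntfr (0.119), Gpr45 (0.119), Gng12 (0.122) and Lyve1 (0.124). Hadh, a mitochondrial enzyme of fatty acid oxidation, had means of 35.2 RPKM (immature), 56.9 RPKM (mature) and 11.6 RPKM (double negative), close to Pdx1 in level as well. The closest to Nkx6-1 were Fkbp1b (0.070), a binding protein of calcium release channels, Muc4 (0.110), Ppp1r1a (0.143), the galanin receptor gene Galr1 (0.161) and Mnx1 (0.193). Mnx1 was closest to Gjd2 (0.115), which encodes a gap junction protein that couples beta cells, then to Pde5a (0.173), the muscarinic receptor gene Chrm3 (0.182), Hpgds (0.188) and Nkx6-1. Nkx6-1 and Mnx1 were thus in each other's 5 nearest genes, while from Pdx1 Mnx1 ranked 92 and Nkx6-1 176. Glis3, with its narrow range, was closest to Sntg1 (0.012), Trmt6 (0.021), Amigo2 (0.028), Ndfip2 (0.039) and Slc10a3 (0.039), and it ranked 794 from Mnx1. This measure depends on the added constant for low genes such as Mnx1, and points share the same 6 libraries.

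The 250 bases before the RefSeq start (GRCm38.p6) are shown for Mnx1 and Glis3, the members with the widest and the narrowest ratio between mature and double negative cells. In capitals are matches on either strand to TAAT, the core that many homeodomains bind, and to the E-box CANNTG of basic helix-loop-helix factors.
Mnx1: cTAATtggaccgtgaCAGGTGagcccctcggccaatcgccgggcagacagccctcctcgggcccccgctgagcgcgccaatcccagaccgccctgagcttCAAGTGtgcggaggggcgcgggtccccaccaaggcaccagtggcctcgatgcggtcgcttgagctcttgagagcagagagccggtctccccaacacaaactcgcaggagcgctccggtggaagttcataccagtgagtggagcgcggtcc
Glis3: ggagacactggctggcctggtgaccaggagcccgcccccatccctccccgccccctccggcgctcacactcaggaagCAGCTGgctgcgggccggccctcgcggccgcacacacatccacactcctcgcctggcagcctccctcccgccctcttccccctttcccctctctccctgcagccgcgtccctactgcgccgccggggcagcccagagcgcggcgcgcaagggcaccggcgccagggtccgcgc
The Mnx1 window, chr5:29478471-29478720 on the minus strand, held 1 TAAT, starting 249 bases before the start, and E-boxes starting 235 and 150 bases before it. The Glis3 window, chr19:28680078-28680327 on the minus strand, held 1 E-box, starting 173 bases before the start, and no TAAT. Of 27025 such windows, 1 per RefSeq gene, 55.3% held TAAT and 66.0% held CANNTG. Both windows were rich in G and C, at 66.4% for Mnx1 and 75.6% for Glis3, against a median of 52.0% over all windows. The windows of Pdx1 and Nkx6-1 overlap exons of GENCODE M21 and are not printed. Pdx1 held 3 E-boxes and no TAAT, and Nkx6-1 held neither. TGGGGGGT, the core bound by Glis proteins, was in none of the 4 windows and in 1.32% of all. CCAAT was in those of Pdx1 and Mnx1 and in 34.5% of all, and TATAAA in none of the 4 and in 13.0% of all. A match describes the letters of a window and not a bound site.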

How the data were processed

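The authors deposited a table of RPKM values, read counts divided by gene length and library size, with 1 column for each library, matched here to the library by its title. Per the submitters' processing notes, the tools were STAR 2.5, featureCounts and edgeR 3.14.0 and the build GRCm38.p4, with annotation, filters and strand setting not given in the sources used here. Since RPKM are shares of a library, a few genes weigh on all values: Ins2 held 12% and 12.4% of summed RPKM in immature and 33.2% and 34.8% in mature libraries, and Gcg 40.3% and 38.9% in double negative libraries.

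Reads were recovered with GENCODE M21 exonic lengths. Between 78.1% and 83.8% of values under 200 reads per library were whole within 0.02 reads, as was every member value. The test used limma 3.58.1 (R 4.3.3) on log2(RPKM + 1) for genes with at least 1 RPKM in at least 2 libraries, with group means over the 6 libraries, an intensity trend, 3 residual degrees of freedom and two-sided p-values with Benjamini-Hochberg adjustment at 0.05 over all tested genes. The sex labels, if right, mean that the 2 libraries of a population came from separate mice and that their spread includes sex. The design text names females only, so this is not settled, and the p-values reflect library spread that may be technical. The fit was also run on simulated data, with the same variation beyond counting error in every library. That run therefore cannot show how the fit behaves when populations vary unequally. On the real data the fit gave each gene a single spread for all populations, although their replicates did not vary alike. The SD of the log2 difference between replicates was 0.393 for immature cells. Mature cells had an SD of 0.132, and for double negative cells it was 0.222. SEs of comparisons with immature cells can thus be too small. With only the 2 compared groups in the fit, Nkx6-1 still passed between immature and mature cells (SE 0.14, limma adjusted p = 0.0159). That fit also gave both groups a single spread, so it does not settle whether the SE is too small.

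For ratios, a member's log2 value was subtracted from that of every gene before the fit. Voom on whole-read genes, whole-read genes alone and unmoderated ratios were added after the data were seen. Members and lists were chosen with earlier results of these data known. Genes were named as members, nearest protein-coding neighbours, the 4 largest differences between immature and mature cells in each list and the 5 closest profiles; other genes were chosen after their values were seen. A few genes that this rule names, and some sequences, are not reported here. Read intervals are exact Poisson or conditional binomial ones at 95%.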

Additional observations from a re-analysis of the deposited data

How the results depend on the processing

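Between mature or immature and double negative cells, all 4 genes kept their direction and passed limma under all 19 alternatives. Pdx1 also did so between immature and mature cells (-1.20 to -0.37). There Mnx1 did not pass with 0.1 added in place of 1 (-0.63), nor did Nkx6-1 (-0.27) and Mnx1 (-0.20) after endocrine rescaling. Glis3 passed after median-ratio rescaling (-0.51) and quantile normalization (-0.50) and turned sign after endocrine rescaling (0.26). Leaving out each library in turn gave -0.92 to -0.61 for Pdx1, -0.87 to -0.47 for Nkx6-1, -0.60 to -0.50 for Mnx1 and -0.16 to -0.05 for Glis3. Genes called between mature and double negative cells ranged from 4767 (without mature replicate 2) to 8982 when a library was left out, against 7256, and were 4765 with whole-read genes alone. Voom, on those same genes, called 5632 between immature and mature and 4831 between immature and double negative cells, against 8728 and 7563. Both of these settings tested 8995 genes, against 13367 in the main fit, so their counts have a smaller base. Calls split into 6655 higher and 2073 lower in immature than mature cells as deposited, 4099 and 4978 after median-ratio rescaling, 3122 and 5359 after quantile normalization and 9738 and 745 after endocrine rescaling. Between mature and double negative cells the split was 3088 higher and 4168 lower, and 1558 and 6929 after endocrine rescaling. Between immature and double negative cells it was 6142 and 1421, with 3497 and 3547 after median-ratio rescaling and 2864 and 4348 after quantile normalization. The Mnx1 to Nkx6-1 ratio turned sign with 0.1 or 0.5 added, to 1.43 and 0.31 between mature and double negative cells and to 1.48 and 0.39 between immature and double negative cells. Without single libraries that ratio ranged from -0.12 to 0.36 between immature and mature cells and from -0.43 to 0.05 between immature and double negative cells. The cause of these changes was not tested. With the replicate number, which is also the sex label, as a replicate block, no member's call changed: Pdx1 differed by -0.77 (SE 0.07) between immature and mature cells, and 8407 genes were called. The labels do not say that the number marks a shared pool, and the replicate differences correlated across genes at -0.01, 0.14 and -0.11 between pairs of populations. Depth limits Mnx1 most, with 27 to 36 reads in immature and 6 to 14 in double negative libraries.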
